A study of Mus musculus with 23 samples.

Results

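Livers of male IL-10/IL-4 double-knockout mice fed a high-fat diet (dKO_HFD, 4 libraries) were compared with livers of male IL-4 knockout mice fed the same diet (IL4KO_HFD, 3 libraries) across all genes. These 7 libraries, each labelled as a separate mouse, were taken by genotype and diet from the 23 RNA-seq libraries of a study of fatty liver that also holds wild-type mice and mice on chow. All mice were on the C57Bl/6 background, came from Taconic Farms at 6 to 8 weeks of age, and then ate a diet with 60% of its energy from fat for 15 weeks. Both groups therefore carry the IL-4 knockout and the diet, and they differ, by their labels, in the IL-10 gene. The labels give no construct for either knockout. By the labels, the design sets loss of IL-10 on top of missing IL-4, not loss of IL-10 alone. Any other difference between the mouse lines cannot be told apart from it here. The livers were perfused before the RNA was taken, and a level is given in CPM, which are counts scaled to library size with trimmed mean of M values factors.

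IL-4 is the cytokine of type 2 immunity that signals through STAT6 and steers macrophages towards an alternative state. IL-10 signals through STAT3 in macrophages and dampens the output of inflammatory cytokines. In a liver loaded with fat, both act mainly on Kupffer cells and recruited macrophages, which in turn act on hepatocytes, bile duct cells and the stellate cells that lay down matrix.

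The targeted genes were looked at first. Il10 (chr1:131019845-131024970, GRCm38) had 6, 8, 17 and 21 counts in the libraries labelled dKO_HFD and 0 counts in all 3 IL4KO_HFD libraries. The libraries labelled as lacking Il10 were thus those with reads in it. The labels give no construct, so these reads do not show whether the label is wrong. As a level, Il10 was 0.803 ± 0.591 CPM in dKO_HFD (SD, n = 4), which is at least 6.72-fold higher than in IL4KO_HFD when 3 counts over that group stand for its 0 (FDR 0.0347). The call was lost without IL4KO_HFD replicate 1, IL4KO_HFD replicate 2 or dKO_HFD replicate 4, and on the deposited log2 values. In wild-type mice on the diet Il10 had 0 to 4 counts. On chow it had 41 to 67 counts in the libraries labelled double knockout and 0 to 2 in those labelled IL-4 knockout (FDR 3.62e-05). Gene counts cannot show which part of the gene the reads came from. Il4 (chr11:53612460-53618665) had 0 to 1 counts per library in both groups and was not tested, so it checks no label. The word dKO below always means the libraries labelled so.

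Tissue and sex labels held up in the counts. Alb, the plasma protein albumin, lay between 95200 and 99000 CPM in dKO_HFD and between 65400 and 95300 CPM in IL4KO_HFD. The Y-linked gene Ddx3y lay between 59.6 and 74.5 CPM in dKO_HFD and between 62.5 and 74.9 CPM in IL4KO_HFD, while Xist stayed at or below 0.234 CPM in the 7 libraries. Depth was unequal, with totals of 12692787 to 25460163 counts in dKO_HFD and 7788331 to 8935346 in IL4KO_HFD. Correlations of log2 CPM were 0.963 to 0.989 within dKO_HFD, 0.950 to 0.979 within IL4KO_HFD and 0.932 to 0.983 between the groups. A pair of libraries stood apart: dKO_HFD replicate 4 lay at -54.2 on the second principal component of the 7 libraries, which holds 30.6% of their variance, and IL4KO_HFD replicate 2 lay at 61.1 on the first, which holds 38.4%. Transcript length also moved with the groups. The median level of genes with transcripts of 4772 bases or more minus that of genes with up to 2193 bases was 0.07 to 0.19 log2 units in dKO_HFD and -0.09 to 0.02 in IL4KO_HFD, with no overlap. The part of length and of these libraries in the results was not tested beyond the values given beside them.

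Of 12891 genes tested, 323 (2.51%) differed at a false discovery rate (FDR, Benjamini-Hochberg over all tested genes) below 0.05 in edgeR's two-sided quasi-likelihood test. Of these called genes, 122 (0.946% of all tested) were higher and 201 (1.56% of all tested) lower in dKO_HFD. In each direction, 50 called genes changed by 2-fold or more. The CPM of 258 of the called genes did not overlap between the groups, while 1465 genes (11.4%) did not overlap among all those tested. The median log2 fold change of all tested genes was 0.00, with 50.4% of them positive. Genes called higher had a median transcript length of 4232 bases and genes called lower one of 2159 bases, against 3371 bases for all tested genes with a length. With each library's length trend taken out, 191 genes were called, 175 of them among the 323.

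The count rested heavily on single libraries. Without IL4KO_HFD replicate 2 it was 39, without IL4KO_HFD replicate 1 it was 93, without dKO_HFD replicate 2 it was 106 and without dKO_HFD replicate 4 it was 118. Without IL4KO_HFD replicate 3 it was 1241, and with the 7 libraries fitted on their own it was 4, namely Entpd4, Lamc3, Erdr1 and Camk2b, named after their values were seen.

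**Figure D1:**
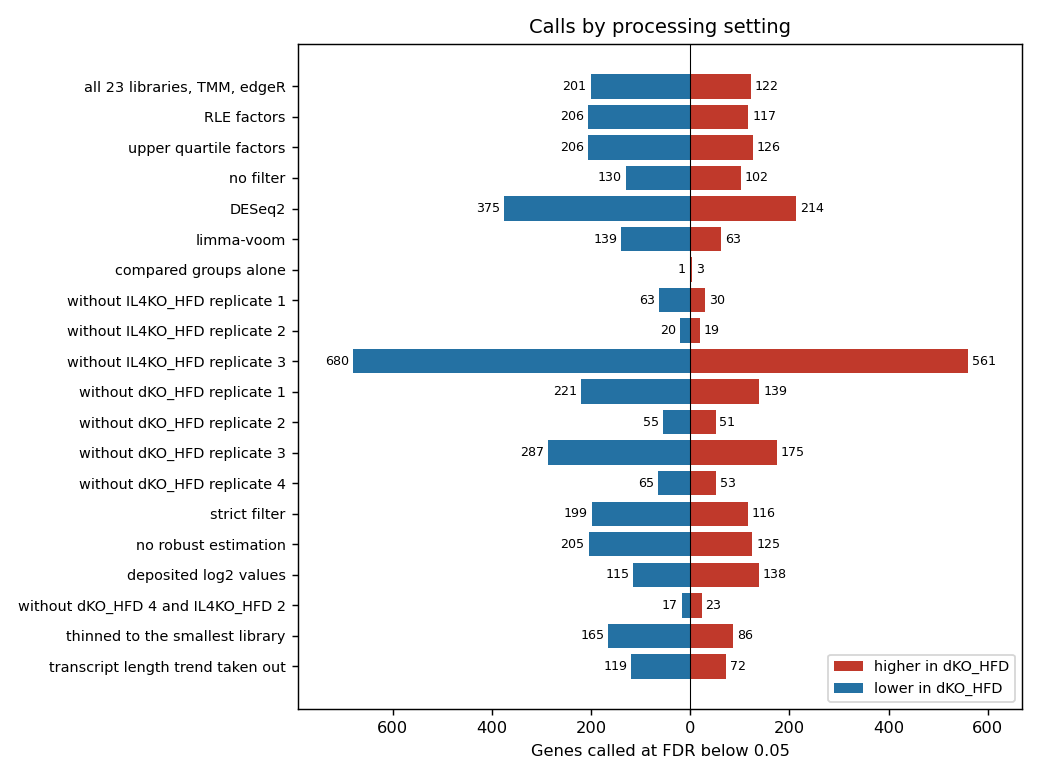
Genes called higher (bars to the right) and lower (bars to the left) in dKO_HFD than in IL4KO_HFD at FDR below 0.05, on the horizontal axis, for the 23-library fit and each alternative, on the vertical axis. The total runs from 4 with the compared groups alone to 1241 without IL4KO_HFD replicate 3, against 323 in the 23-library fit.

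A group of 29 genes was called in the 23-library fit and again without each of the 7 libraries in turn, 12 of them higher and 17 lower. All 29 were also called with the length trend taken out, at FDR of at most 0.0286. They were picked out after their values were seen. Entpd4, a nucleotidase of the Golgi and lysosomes, had 73.8, 66.2, 67.8 and 72.7 CPM in dKO_HFD, against 39.9, 41.8 and 41 CPM in IL4KO_HFD, a log2 fold change of 0.78 ± 0.07 (SE, FDR 1.41e-06). Lamc3, the laminin gamma 3 chain of basement membranes, had 8.43, 11.3, 13.7 and 9.06 CPM in dKO_HFD, against 1.60, 2.01 and 1.48 CPM in IL4KO_HFD (2.64 ± 0.25, FDR 1.80e-06). These were the 2 genes called under all 19 alternatives, and the libraries of each group lay close together in both. Reads of Entpd4 may be shared with its near copy Entpd4b, which the counts cannot settle.

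Further stable genes that rose were Ulk2, Chd3, Kitl and Scara3. Ulk2, a kinase that starts autophagy, had 94.2, 94.4, 81.5 and 77.6 CPM in dKO_HFD, against 51.3, 49.6 and 53.7 CPM in IL4KO_HFD (0.75 ± 0.09, FDR 1.44e-05). Chd3, a chromatin remodeller of the NuRD complex, had 143 to 184 CPM in dKO_HFD, against 69.9 to 92.8 CPM in IL4KO_HFD (1.01 ± 0.11, FDR 1.44e-05). Kitl, the ligand of the KIT receptor, had 10.1 to 12.2 CPM in dKO_HFD, against 4.14 to 5.53 CPM in IL4KO_HFD (1.17 ± 0.17, FDR 0.000568). In none of the 3 did the groups overlap. Scara3, a scavenger receptor-like protein, reached 6.55 to 14.4 CPM in dKO_HFD, against 1.21 to 1.60 CPM in IL4KO_HFD (2.66 ± 0.31, FDR 2.90e-05).

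Stable genes that fell include D2hgdh, Tymp, Sco2, Xaf1 and Slc2a4. D2hgdh, which oxidises D-2-hydroxyglutarate, had 29.4, 29.3, 28.3 and 19.5 CPM in dKO_HFD, against 54.2, 50.7 and 46.2 CPM in IL4KO_HFD (-0.92 ± 0.10, FDR 1.44e-05). Tymp, the thymidine phosphorylase, had 37.9, 34.5, 41.6 and 16.4 CPM in dKO_HFD, against 110, 78.9 and 93.1 CPM in IL4KO_HFD (-1.52 ± 0.21, FDR 0.000456). Sco2, a copper chaperone for cytochrome oxidase, had 30.3 to 41 CPM in dKO_HFD, against 67.3 to 89.1 CPM in IL4KO_HFD (-1.01 ± 0.13, FDR 6.71e-05). Tymp and Sco2 overlap on chromosome 15 (89371631-89377036 and 89371630-89373891), so their reads are not independent. Xaf1, an interferon-induced gene that binds the apoptosis inhibitor XIAP, had 2.71, 3.01, 3.30 and 5 CPM in dKO_HFD, against 14.1, 22.7 and 12.7 CPM in IL4KO_HFD (-2.25 ± 0.22, FDR 1.80e-06). It was the 1 gene called among 33 tested of the type I interferon list, whose median was -0.16. Isg15, a ubiquitin-like protein of that list, had 2.97 to 5.95 CPM in dKO_HFD and 4.18 to 4.57 CPM in IL4KO_HFD (FDR 0.798). Slc2a4, which encodes the insulin-regulated glucose transporter GLUT4, had 0.124 to 0.312 CPM in dKO_HFD, against 1.49 to 2.02 CPM in IL4KO_HFD (-2.98 ± 0.56, FDR 0.0084).

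**Figure D2:**
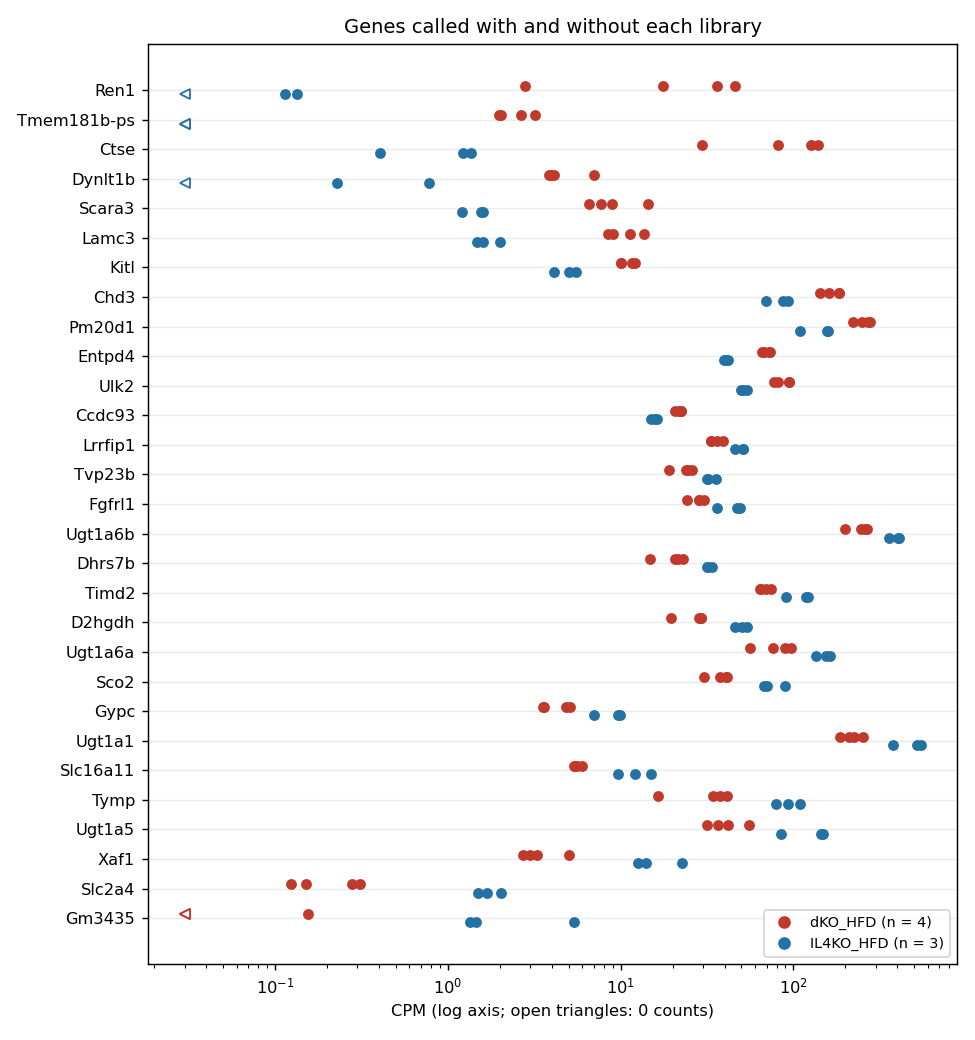
CPM of the 29 genes called with and without each library, on a log axis, by library; red circles are dKO_HFD (n = 4), drawn above, and blue circles IL4KO_HFD (n = 3), with open triangles for libraries at 0 counts. The groups do not overlap in any of the genes, and the widest gaps are in Ren1, Tmem181b-ps, Ctse and Gm3435.

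For these stable genes, wild-type mice on the same diet (WT_HFD, 4 libraries) give a further point of comparison. Both comparisons share the WT_HFD libraries, so their values are only set side by side. Entpd4 differed from WT_HFD by 0.80 on the log2 scale in dKO_HFD (FDR 1.27e-08) and by 0.02 in IL4KO_HFD (FDR 0.935). Lamc3 differed by 2.59 in dKO_HFD (FDR 2.00e-08) and by -0.05 in IL4KO_HFD (FDR 0.964). For Xaf1 the values were -0.57 in dKO_HFD (FDR 0.0569) and 1.68 in IL4KO_HFD (FDR 6.33e-05). For Ulk2 they were 0.16 in dKO_HFD (FDR 0.125) and -0.59 in IL4KO_HFD (FDR 0.000229). An FDR that misses the threshold does not show that a group equals WT_HFD.

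The share of called genes near Il10 was above that of the rest of chromosome 1, a difference that was not tested. Within 10 Mb of Il10, 13 of 101 tested genes were called (12.9%, Il10 included), 8 higher and 5 lower, while 19 of 649 were called on the rest of chromosome 1 (2.93%) and 2.5% of all tested genes with a position. Single stretches elsewhere had a like share, such as 6 of 47 genes (12.8%) between 80 and 90 Mb of chromosome 1, where 5 of the 6 belong to the Ugt1a cluster. Without IL4KO_HFD replicate 2 the count within the window was 4, beside 39 of 13075 genes in all. Without IL4KO_HFD replicate 1 it was 7, beside 93 of 13113, and without IL4KO_HFD replicate 3 it was 25, beside 1241 of 13112. With the compared groups alone it was 0, beside 4 of 12085. Ren1, which encodes renin, and Ctse, which encodes the aspartic protease cathepsin E, had the widest differences there. Ren1 (chr1:133350674-133360320) had 17.6, 45.7, 36.1 and 2.81 CPM in dKO_HFD, against 0.114, 0 and 0.135 CPM in IL4KO_HFD, which rest on 2 counts. The ratio of pooled CPM was 376.5, with a 95% interval of 104.1 to 3111 that covers counting error only (FDR 0.00175). Ctse (chr1:131638314-131675507) had 126, 81.4, 139 and 29.8 CPM in dKO_HFD, against 1.37, 1.23 and 0.405 CPM in IL4KO_HFD (6.5 ± 0.55, FDR 1.80e-06). The groups stood far apart in both genes, and dKO_HFD replicate 4 was the lowest of its group in each. Against WT_HFD, Ren1 differed by 0.10 on the log2 scale in dKO_HFD (FDR 0.895) and by -8.10 in IL4KO_HFD (FDR 0.00114). Ctse differed from WT_HFD by -1.35 in dKO_HFD (FDR 0.00421) and by -7.85 in IL4KO_HFD (FDR 4.46e-08). Where a genome also holds the near copy Ren2, its reads cannot be told with certainty from those of Ren1, and the counts do not show whether these mice carry it.

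The promoter window of Ren1 is shown because Ren1 is the called gene with the largest fitted change. It holds 250 bases before the start and 50 from it, from RefSeq on GRCm38.p6 (chr1:133350424-133350723, plus strand), 5′ to 3′, with the letters TATAAA in capitals.
Ren1: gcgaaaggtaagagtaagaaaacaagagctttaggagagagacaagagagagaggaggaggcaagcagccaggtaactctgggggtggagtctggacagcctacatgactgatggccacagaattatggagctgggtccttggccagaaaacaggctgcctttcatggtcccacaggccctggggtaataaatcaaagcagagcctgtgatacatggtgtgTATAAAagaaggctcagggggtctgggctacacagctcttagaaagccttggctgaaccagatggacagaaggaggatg
TATAAA, searched on both strands, begins 29 bases before the start here and occurs in 4473 of 32851 such windows (13.6%).

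Further called genes in this window were smaller in size. Pm20d1, a secreted enzyme that makes N-acyl amino acids, had 223 to 279 CPM in dKO_HFD, against 110 to 159 CPM in IL4KO_HFD (0.85 ± 0.10, FDR 3.48e-05). Ccdc93, part of an endosomal recycling complex, had 20.8 to 22.5 CPM in dKO_HFD, against 15.0 to 16.2 CPM in IL4KO_HFD (0.48 ± 0.08, FDR 0.00367). Mcm6, a subunit of the replicative helicase, fell to 0.371 to 1.33 CPM in dKO_HFD, against 3.51 to 7.71 CPM in IL4KO_HFD (-2.44 ± 0.41, FDR 0.00235). Phlda3, a p53 target, fell to 0.247 to 0.602 CPM in dKO_HFD, against 0.945 to 4.02 CPM in IL4KO_HFD (-2.32 ± 0.39, FDR 0.00231). R3hdm1, Nuak2 and Rassf5 were called higher by 0.44 to 0.92, and Arl8a, Tmem9 and Dars lower by 0.35 to 0.54. Of these, Pm20d1, Ccdc93, Ctse and Ren1 are among the 29 stable genes.

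**Figure D3:**
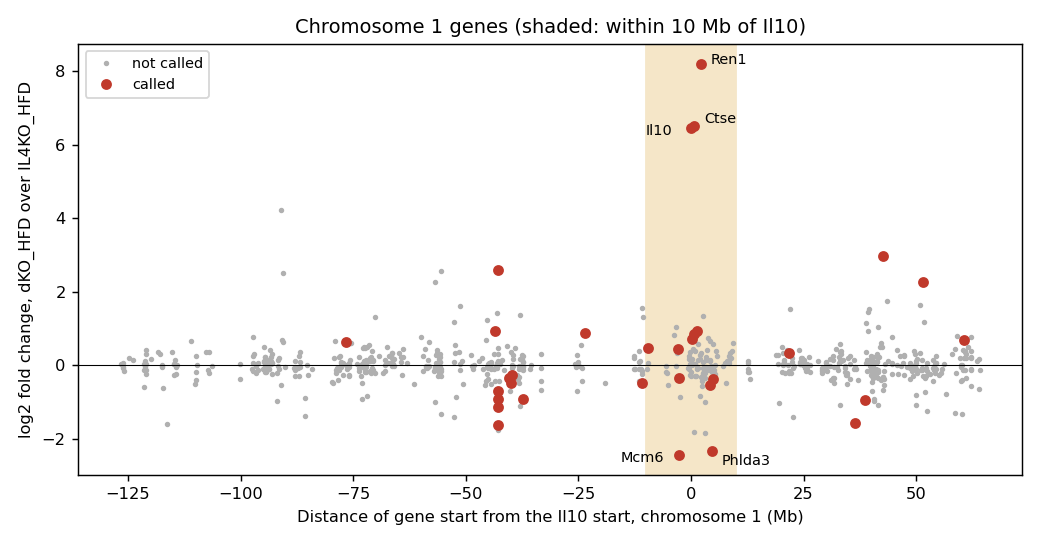
Log2 fold change of dKO_HFD over IL4KO_HFD for every tested gene of chromosome 1 (vertical axis) by the distance of its start from the start of Il10 in Mb (horizontal axis), with called genes in red and the 10 Mb on either side shaded. Ren1, Ctse and Il10 stand above 6 inside the shaded part, and Mcm6 and Phlda3 are its lowest points.

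The share of called genes around Il4 was lower than around Il10. Within 10 Mb of Il4 7 of 181 tested genes were called (3.87%), against 27 of 877 on the rest of chromosome 11 (3.08%), and both groups carry that knockout. The called genes were Ulk2, Timd2, Dhrs7b, Tvp23b, Shmt1, Lyrm7 and Atox1. Timd2, a receptor of the TIM family that takes up ferritin, had 63.8 to 73.9 CPM in dKO_HFD, against 91.2 to 122 CPM in IL4KO_HFD (-0.70 ± 0.08, FDR 3.48e-05). Shmt1, the cytosolic serine hydroxymethyltransferase of folate metabolism, had 120 to 159 CPM in dKO_HFD, against 181 to 214 CPM in IL4KO_HFD (-0.48 ± 0.11, FDR 0.0228). Lyrm7, an assembly factor of respiratory complex III, had 1.41 to 2.79 CPM in dKO_HFD, against 0.229 to 0.675 CPM in IL4KO_HFD (2.0 ± 0.48, FDR 0.0294). Of the 29 stable genes, 10 lie on chromosome 1 and 8 on chromosome 11. These chromosomes hold 5.84% and 8.24% of the tested genes with a position. The 8 on chromosome 11 lie between -6.94 Mb (Timd2) and 18.7 Mb (Xaf1) from the start of Il4. Within 20 Mb of Il4, 15 of 326 tested genes were called (4.60%), against 19 of 732 on the rest of that chromosome (2.60%), a difference that was not tested.

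Large differences also lay on other chromosomes. Erdr1 had 12.8, 7.95, 16.2 and 18.8 CPM in dKO_HFD, against 0, 0 and 0.135 CPM in IL4KO_HFD (FDR 0.0347). Its pooled ratio was 332.5, with a 95% counting interval of 59.5 to 13150 that rests on 1 count. The Erdr1 call was lost in 7 of 19 alternatives. On chromosome 17, Tmem181b-ps had 1.98 to 3.20 CPM in dKO_HFD and 0 in the 3 IL4KO_HFD libraries, at least 20.6-fold higher (FDR 7.85e-06). Dynlt1b, a dynein light chain that overlaps it, had 3.85 to 7.03 CPM in dKO_HFD, against 0 to 0.782 CPM in IL4KO_HFD (3.69 ± 0.49, FDR 9.87e-05). Gm3435, also on chromosome 17, went the other way, with 0, 0, 0 and 0.156 CPM in dKO_HFD, against 5.37, 1.45 and 1.35 CPM in IL4KO_HFD (FDR 6.71e-05). In WT_HFD, Erdr1 had 1.46, 0, 5.49 and 18.5 CPM, Tmem181b-ps 1.95 to 2.29 CPM and Dynlt1b 3.54 to 4.93 CPM. Against WT_HFD, the FDR for Tmem181b-ps was 0.572 in dKO_HFD and 9.12e-06 in IL4KO_HFD. For Dynlt1b it was 0.568 in dKO_HFD and 0.000229 in IL4KO_HFD, and for Erdr1 0.294 and 0.0803. Dynlt1b and Tmem181b-ps have near-identical copies, so the assignment of their reads is uncertain.

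The same genotypes on chow (dKO_chow, 4 libraries, and IL4KO_chow, 4 libraries) share no library with the comparison on the high-fat diet. There 5822 of the tested genes were called (45.2%). Of the 323 genes called on the high-fat diet, 250 had the same sign on chow (77.4%, against 53.9% of all tested genes), 176 were called there in the same direction and 17 in the opposite one. All 29 stable genes had the same sign on chow and 27 were called, Ulk2 (FDR 0.0511) and Gypc (FDR 0.757) being the exceptions. The test of the difference between the diets, the genotype by diet interaction, was called for 103 of the 323 genes, while it was called for 24.4% of all tested genes. Cyp1a2, a drug-metabolising cytochrome of pericentral hepatocytes, turned round: its log2 fold change was 1.23 on the high-fat diet (FDR 0.0111) and -0.59 on chow (FDR 0.0287), with an interaction FDR of 0.0012. Pdlim2, an adaptor that promotes breakdown of STAT and NF-kB proteins, did the reverse, with -1.88 on the high-fat diet (FDR 0.0111), 1.10 on chow (FDR 0.0343) and an interaction FDR of 0.00142.

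**Figure D4:**
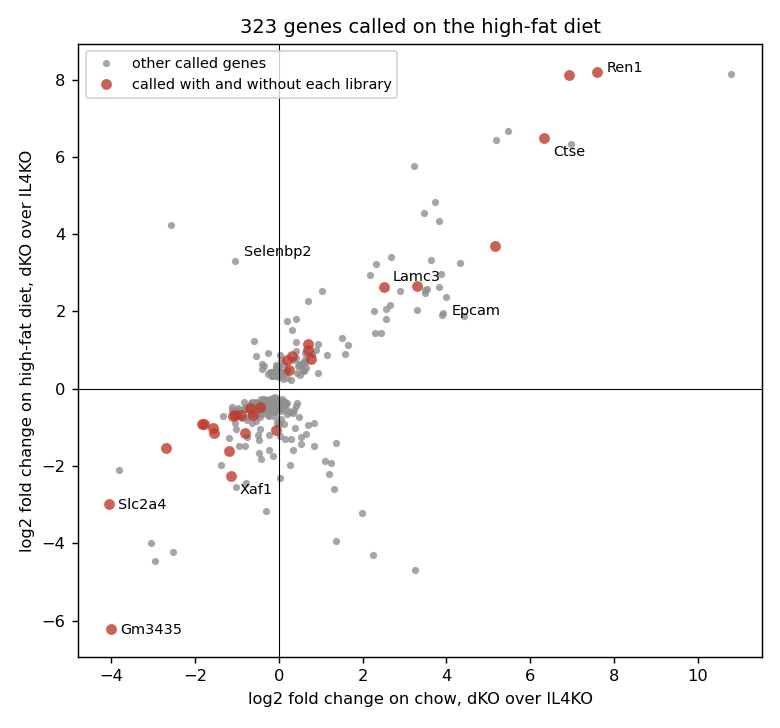
Log2 fold change of dKO over IL4KO on the high-fat diet (vertical axis) against the same on chow (horizontal axis) for the 323 genes called on the high-fat diet, with the 29 stable genes in red. The stable genes lie in the quadrants of equal sign, and Selenbp2 is among the genes with opposite signs.

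Of 16 bile duct markers tested, edgeR called 5 higher in dKO_HFD (Epcam, Krt19, Sox9, Prom1 and Cldn7) and none lower, 13 were positive, and the median log2 fold change was 1.61. DESeq2 called 8 higher and 1 lower. In whole-liver RNA, more cells of a type and more RNA per cell cannot be told apart. The list level, which is the mean log2 CPM of its members minus the mean over the 23 libraries, was 0.20, 0.23, 0.56 and 1.19 in dKO_HFD, against -0.74, -0.28 and -0.97 in IL4KO_HFD. All 4 dKO_HFD libraries lay above all 3 IL4KO_HFD libraries. Epcam, an adhesion protein of duct epithelium, had 3.54, 2.88, 3.44 and 4.61 CPM in dKO_HFD, against 0.800, 1.34 and 0.675 CPM in IL4KO_HFD (1.90 ± 0.37, FDR 0.0102). Krt19, a keratin of duct cells, had 2.18, 1.40, 2.55 and 2.81 CPM in dKO_HFD, against 0.457, 1.01 and 0.270 CPM in IL4KO_HFD (1.88 ± 0.47, FDR 0.0363). Sox9, the transcription factor of duct and progenitor cells, had 6.85, 6.96, 6.97 and 18 CPM in dKO_HFD, against 3.66, 3.80 and 4.05 CPM in IL4KO_HFD (1.31 ± 0.28, FDR 0.0183), so replicate 4 alone stood far above the rest. Prom1, a membrane protein of progenitor cells, had 1.40 to 3.28 CPM in dKO_HFD, against 0.224 to 0.457 CPM in IL4KO_HFD (2.56 ± 0.50, FDR 0.0102). Cldn7, a tight junction protein, had 0.452 to 1.64 CPM in dKO_HFD, against 0 to 0.135 CPM in IL4KO_HFD (FDR 0.0245). Spp1, the duct-secreted osteopontin that macrophages also make, had 143, 94.2, 117 and 270 CPM in dKO_HFD, against 43.5, 163 and 37.8 CPM in IL4KO_HFD (FDR 0.223), with overlap. Without IL4KO_HFD replicate 1 only 1 of the 16 was called and without replicate 2 only 2 were, with medians of 1.47 and 2.22. None was called with limma-voom, at a median of 1.46, or with the compared groups alone, where 12 were tested at a median of 1.46. The difference in Epcam was smaller than on chow, where it was 3.90, with an interaction FDR of 0.0121.

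Genes of the NRF2 antioxidant programme and the glutathione transferases were called in 1 direction. NRF2 is the transcription factor that drives detoxification enzymes under oxidative stress. Of 29 tested, 8 were called lower and none higher, 4 were positive, and the median was -0.60. Nqo1, a quinone reductase, had 4.97, 3.50, 6.69 and 2.34 CPM in dKO_HFD, against 11.8, 15.4 and 5.94 CPM in IL4KO_HFD (-1.33 ± 0.29, FDR 0.0187). Gclc, the rate-limiting enzyme of glutathione synthesis, had 198, 130, 179 and 125 CPM in dKO_HFD, against 262, 367 and 196 CPM in IL4KO_HFD (-0.80 ± 0.19, FDR 0.025). In both genes IL4KO_HFD replicate 3 fell inside the range of dKO_HFD, and replicate 2 was highest. Tkt, the transketolase of the pentose phosphate pathway, had 125 to 163 CPM in dKO_HFD, against 167 to 290 CPM in IL4KO_HFD (-0.64 ± 0.13, FDR 0.0151), with no overlap. The transferases Gstm1, Gstm4 and Gsta1, the carbonyl reductase Cbr3 and the sulfiredoxin Srxn1 were called lower too, by -0.71 to -4.22. The list level was -0.36, -0.50, -0.23 and -0.65 in dKO_HFD, against 0.17, 0.63 and -0.63 in IL4KO_HFD, where replicate 3 lay with dKO_HFD. Without IL4KO_HFD replicate 2 none of the 29 was called and the median was -0.33, and without replicate 3 there were 17.

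Promoter windows of a pair of the lower genes are shown because the antioxidant response element, to which NRF2 binds, is a known feature of this programme. Both are from RefSeq on GRCm38.p6, Nqo1 at chr8:107403156-107403455 on the minus strand and Srxn1 at chr2:152105274-152105573 on the plus strand. Capitals mark TATAAA in Nqo1, which is not the antioxidant response element, and a match to TGACNNNGC, read on the opposite strand, in Srxn1.
Nqo1: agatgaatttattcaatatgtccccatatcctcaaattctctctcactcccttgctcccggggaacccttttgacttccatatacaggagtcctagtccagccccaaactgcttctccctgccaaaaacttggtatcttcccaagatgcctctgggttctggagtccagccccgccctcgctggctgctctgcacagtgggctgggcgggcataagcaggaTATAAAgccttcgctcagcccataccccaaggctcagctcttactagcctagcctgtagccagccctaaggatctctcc
Srxn1: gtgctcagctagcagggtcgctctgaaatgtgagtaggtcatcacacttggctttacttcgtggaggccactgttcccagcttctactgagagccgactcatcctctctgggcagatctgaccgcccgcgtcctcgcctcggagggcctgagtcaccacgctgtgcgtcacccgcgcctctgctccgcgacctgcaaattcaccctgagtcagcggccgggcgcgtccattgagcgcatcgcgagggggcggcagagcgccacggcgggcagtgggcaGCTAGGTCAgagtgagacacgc
Of the 8 lower genes 7 had a window, and TGACNNNGC, searched on both strands, was in 1 of them, Srxn1, against 4071 of 32851 windows in all (12.4%). TATAAA was in those of Nqo1 and Gstm1. The Srxn1 match begins at base 29 counted from the start, and a match is a run of letters, not a shown binding site.

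Of 28 genes of fatty acid synthesis and its sugar supply tested, 4 were called lower and none higher, 2 were positive, and the median was -0.42. Pklr, the liver pyruvate kinase that ends glycolysis, had 310, 156, 215 and 246 CPM in dKO_HFD, against 452, 567 and 402 CPM in IL4KO_HFD (-1.03 ± 0.21, FDR 0.015). The groups did not overlap in this gene. Elovl5, an elongase of polyunsaturated fatty acids, had 550 to 891 CPM in dKO_HFD, against 877 to 1520 CPM in IL4KO_HFD (-0.82 ± 0.21, FDR 0.042). Tkfc, which phosphorylates the fructose product glyceraldehyde, had 306 to 388 CPM in dKO_HFD, against 416 to 658 CPM in IL4KO_HFD (-0.63 ± 0.16, FDR 0.042). The core synthases missed the threshold: Fasn had 295 to 404 CPM in dKO_HFD, against 426 to 797 CPM in IL4KO_HFD (-0.80 ± 0.26, FDR 0.102). Scd1, the desaturase that makes oleate, had 3290 to 8680 CPM in dKO_HFD, against 7960 to 16600 CPM in IL4KO_HFD (-1.13 ± 0.51, FDR 0.227). The regulators Srebf1 and Mlxipl had log2 fold changes of -0.10 (FDR 0.866) and 0.15 (FDR 0.481). List levels were -0.21, -0.41, -0.37 and -0.86 in dKO_HFD, against 0.10, 0.20 and -0.14 in IL4KO_HFD, with no overlap, yet without IL4KO_HFD replicate 2 none of the 28 was called at a median of -0.34.

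Khk, Galk1, Gbe1 and Ugp2, which act on sugars, were called lower and were picked after their values were seen. Khk, the ketohexokinase that starts fructose breakdown, had 239 to 330 CPM in dKO_HFD, against 389 to 567 CPM in IL4KO_HFD (-0.74 ± 0.14, FDR 0.00934). Galk1, Gbe1 and Ugp2, of galactose and glycogen metabolism, fell by 0.67, 0.63 and 0.71 on the log2 scale (FDR 0.00753, 0.00795 and 0.024). Of 26 genes of gluconeogenesis and insulin signalling, 3 were called lower, Fbp1 and Gckr among them, while 14 were positive at a list median of 0.04. Fbp1, the fructose bisphosphatase, had 769, 799, 775 and 614 CPM in dKO_HFD, against 1060, 1180 and 990 CPM in IL4KO_HFD (-0.54 ± 0.10, FDR 0.00748). Pck1, which opens gluconeogenesis, had 1690 to 4960 CPM in dKO_HFD, against 2870 to 4770 CPM in IL4KO_HFD (FDR 0.946), with full overlap.

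Some genes of lipid transport and storage were called lower, while 1.56% of all tested genes were. Of 23 lipoprotein genes 3 were called lower at a median of -0.20. Apoa4, an apolipoprotein that increases with liver fat, had 1040, 344, 841 and 331 CPM in dKO_HFD, against 2390, 8080 and 740 CPM in IL4KO_HFD (-2.55 ± 0.55, FDR 0.0223), where replicate 2 stood far above the others. Apoc2 and Apoa5, the activators of lipoprotein lipase, fell by 0.72 and 0.50 on the log2 scale (FDR 0.0226 and 0.0457). Of 24 lipid droplet and PPARgamma target genes 2 were called lower, Plin3 and Vldlr, at a median of -0.40. Plin3, a droplet coat protein, had 51.3 to 64.1 CPM in dKO_HFD, against 63.8 to 101 CPM in IL4KO_HFD (-0.52 ± 0.12, FDR 0.0233). Plin2, the main coat protein of fatty hepatocytes, had 321 to 656 CPM in dKO_HFD and 559 to 939 CPM in IL4KO_HFD (FDR 0.257). Without IL4KO_HFD replicate 2 no member of either list was called. Of 26 cholesterol synthesis genes none was called by edgeR at a median of 0.26, with 3 at an unadjusted p below 0.05 and 1 called by DESeq2. Of 24 bile acid genes none was called by edgeR at a median of -0.01, with 5 at an unadjusted p below 0.05 and 1 called by DESeq2.

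Of 50 respiratory chain genes tested, 3 were called lower, 49 were negative and 32 had an unadjusted p below 0.05 (19.5% of all tested genes did), with a median of -0.20. Ndufa1, a subunit of complex I, had 42.9 to 50.5 CPM in dKO_HFD, against 50.3 to 67.6 CPM in IL4KO_HFD (-0.39 ± 0.09, FDR 0.0186). Cox7b, a subunit of cytochrome oxidase, had 74.3 to 93.5 CPM in dKO_HFD, against 100 to 120 CPM in IL4KO_HFD (-0.36 ± 0.08, FDR 0.0257). Ndufa6 fell by 0.31 on the log2 scale (FDR 0.0281). These genes have short transcripts, and with the length trend taken out none of the 50 was called and the median was -0.13. None was called without IL4KO_HFD replicate 1, IL4KO_HFD replicate 2, dKO_HFD replicate 2 or dKO_HFD replicate 4. Of 38 genes of fatty acid oxidation 1 was called lower at a median of -0.28: Hadh had 274 to 412 CPM in dKO_HFD, against 451 to 564 CPM in IL4KO_HFD (-0.51 ± 0.12, FDR 0.0234). Cpt1a, the gate of mitochondrial fatty acid import, had 683 to 859 CPM in dKO_HFD and 801 to 854 CPM in IL4KO_HFD (FDR 0.765).

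Drug and bilirubin metabolism moved in both directions. Ugt1a1, which conjugates bilirubin, had 226, 211, 253 and 187 CPM in dKO_HFD, against 546, 380 and 520 CPM in IL4KO_HFD (-1.14 ± 0.14, FDR 4.57e-05). Ugt1a6a, Ugt1a6b and Ugt1a5 were lower too, by -0.69 to -1.61, while Ugt1a9 was higher, with 264 to 552 CPM in dKO_HFD, against 13.9 to 120 CPM in IL4KO_HFD (2.59 ± 0.49, FDR 0.0126). These genes share their last exons on chromosome 1, so their counts depend on how shared reads were divided. Cyp1a2 had 317, 412, 188 and 281 CPM in dKO_HFD, against 157, 76.6 and 150 CPM in IL4KO_HFD. Cyp3a11, a main drug-metabolising cytochrome of mouse liver, had 226 to 656 CPM in dKO_HFD, against 508 to 1820 CPM in IL4KO_HFD (-1.48 ± 0.38, FDR 0.043), with overlap. Of 38 xenobiotic genes 1 was called higher and 2 lower at a median of -0.17.

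Some matrix and macrophage genes were called lower, while 1.56% of all tested genes were. The medians of the matrix and recruited macrophage lists moved with IL4KO_HFD replicate 2. Of 46 matrix and stellate cell genes 3 were called lower, 5 were positive, and the median was -0.54. Postn, the matrix protein periostin, had 12.1, 6.02, 13.1 and 13.4 CPM in dKO_HFD, against 22.9, 53.5 and 11.7 CPM in IL4KO_HFD (-1.42 ± 0.33, FDR 0.0298). Col1a1, the chain of type I collagen, had 16.5, 3.54, 11.9 and 8.05 CPM in dKO_HFD, against 18.7, 86.0 and 2.97 CPM in IL4KO_HFD (FDR 0.134). The IL4KO_HFD library with the most collagen and periostin was replicate 2 in both. The list level was 0.17, -0.58, 0.07 and 0.01 in dKO_HFD, against 0.17, 1.21 and -0.43 in IL4KO_HFD, and without IL4KO_HFD replicate 2 the median was 0.00 with none called. Trem2, a receptor of lipid-associated macrophages, had 0.602, 0.742, 0.836 and 0.547 CPM in dKO_HFD, against 1.26, 5.48 and 1.21 CPM in IL4KO_HFD (-1.93 ± 0.51, FDR 0.043), with no overlap. It was the 1 gene called among 22 of the recruited macrophage list, whose median was -0.38. Without IL4KO_HFD replicate 2 that median was 0.29, with 18 of the 22 positive, 1 called higher and none lower. Among 16 Kupffer cell genes, with a median of -0.04, Lyve1, which lymphatic and sinusoidal endothelium also expresses, was called lower, with 30.9, 21.6, 30.9 and 30.9 CPM in dKO_HFD, against 57.9, 98.9 and 40.1 CPM in IL4KO_HFD (-1.21 ± 0.26, FDR 0.0226). Clec4f, the defining Kupffer cell lectin, had 74.3 to 144 CPM in dKO_HFD and 68.0 to 106 CPM in IL4KO_HFD (FDR 0.591). Among 20 endothelial genes Lyve1 was the 1 called, and among 37 cell cycle genes Mcm6 was, at medians of -0.15 and -0.52. The cell cycle median was -0.06 without IL4KO_HFD replicate 2.

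Male-biased liver genes differed widely between libraries of 1 group. Of 28 male-biased genes tested all were positive at a median of 1.19, and 1 was called. Selenbp2, a selenium-binding protein with a close copy in Selenbp1, had 1230, 1320, 226 and 838 CPM in dKO_HFD, against 41.3, 34.4 and 201 CPM in IL4KO_HFD (3.30 ± 0.81, FDR 0.039). C6, a complement component, had 320 to 608 CPM in dKO_HFD, against 79.9 to 353 CPM in IL4KO_HFD (1.42 ± 0.43, FDR 0.0869). Levels of the male-biased list were 1.43, 1.5, 0.25 and 0.85 in dKO_HFD, against -1, -3 and 0.88 in IL4KO_HFD. IL4KO_HFD replicate 3 lay within dKO_HFD, and replicate 2 was the lowest of the comparison. Without replicate 3, 17 of the 28 were called, and without replicate 2 none, at a median of 0.71. Of 22 female-biased genes Prom1 was called higher and Vldlr lower at a median of -0.56. Cyp2b9 had 23.9, 3.42, 53.6 and 4.69 CPM in dKO_HFD, against 162, 293 and 4.45 CPM in IL4KO_HFD (FDR 0.141).

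**Figure D5:**
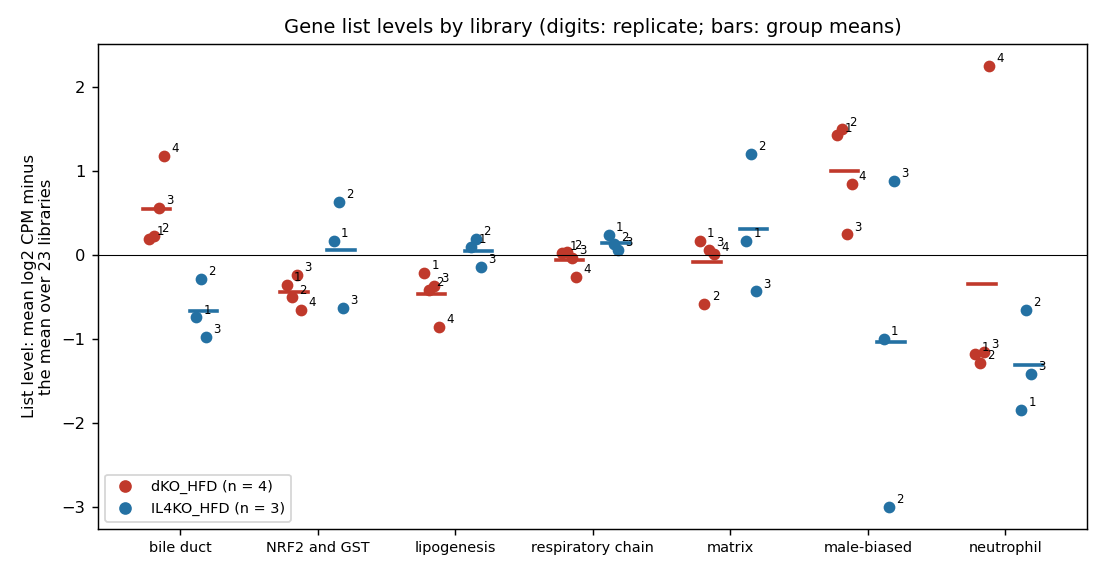
Level of 7 gene lists (vertical axis, mean log2 CPM of the members minus the mean over 23 libraries) in each library, with dKO_HFD (n = 4) in red and IL4KO_HFD (n = 3) in blue, bars at group means and digits for replicates. The groups are apart in the bile duct and lipogenesis lists, and narrowly in the respiratory chain list (at most 0.03 in dKO_HFD, at least 0.07 in IL4KO_HFD). The neutrophil list has dKO_HFD replicate 4 at 2.26 and the male-biased list has IL4KO_HFD replicate 2 at -3.

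By their levels, the neutrophil and acute phase lists set dKO_HFD replicate 4 apart rather than the groups. None of 16 neutrophil genes was called by edgeR or DESeq2 or had an unadjusted p below 0.05, although all were positive and the fitted median was 2.58, or 2.22 with the 3 genes that were at 0 in a whole group put at their bound. S100a8, a calcium-binding protein of neutrophils, had 0.602, 0.371, 0.511 and 15.5 CPM in dKO_HFD, against 0.229, 0.335 and 0.405 CPM in IL4KO_HFD (FDR 0.341). The list level was -1.18, -1.28, -1.15 and 2.26 in dKO_HFD, against -1.84, -0.65 and -1.42 in IL4KO_HFD, and without dKO_HFD replicate 4 the median was -0.01. The acute phase list, none of whose 31 genes was called, had a median of 0.49, and -0.17 without that library. Of these, 4 had an unadjusted p below 0.05 and DESeq2 called 1 higher and 1 lower. Saa1 had 107, 69.7, 101 and 1810 CPM in dKO_HFD, against 69.5, 142 and 398 CPM in IL4KO_HFD (FDR 0.613). Saa4, of the same list, did not follow that library. It had 761, 730, 699 and 845 CPM in dKO_HFD, against 379, 187 and 643 CPM in IL4KO_HFD (FDR 0.0884), with no overlap. Socs3, a feedback inhibitor downstream of STAT3, had 11.3, 7.71, 7.66 and 70.8 CPM in dKO_HFD, against 4.00, 4.14 and 9.04 CPM in IL4KO_HFD (FDR 0.144). The receptor chain Il10ra had 2.86 to 5.55 CPM in dKO_HFD, against 2.56 to 8.05 CPM in IL4KO_HFD (FDR 0.523), and none of 13 IL-4 and IL-10 signalling genes was called by edgeR at a list median of 0.14, with 2 at an unadjusted p below 0.05 and 1 called by DESeq2.

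Lymphocyte genes were near the detection limit. Cd4, the coreceptor of helper T cells that some macrophages also carry, was the 1 gene called of 15 T and NK cell genes, whose median was 0.94, with 2.03, 2.72, 1.16 and 3.51 CPM in dKO_HFD, against 0.457, 0.671 and 0.945 CPM in IL4KO_HFD (1.76 ± 0.44, FDR 0.0346). Cd3e, part of the T cell receptor complex, had 0 to 0.625 CPM in dKO_HFD and 0 to 0.335 CPM in IL4KO_HFD (FDR 0.752). No gene was called by edgeR or DESeq2, and at most 2 of a list had an unadjusted p below 0.05, of 17 cytokine and chemokine genes, 24 of NF-kB and Toll-like receptor signalling, 38 of interferon gamma and antigen presentation, 9 of the type 2 response, 4 of B and plasma cells and 1 of eosinophils and mast cells. Their medians lay between -0.04 and 0.25. Arg1, which hepatocytes as well as alternatively activated macrophages express, had 1180 to 1800 CPM in dKO_HFD and 1270 to 1570 CPM in IL4KO_HFD (FDR 0.823).

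The calls in the remaining lists are given here, while 2.51% of all tested genes were called. Of 26 iron and metal genes the ferritin chains Fth1 and Ftl1 were called lower, by -0.54 and -0.63 (FDR 0.0323 and 0.0471), at a list median of -0.08. Fth1 had 971 to 1360 CPM in dKO_HFD, against 1210 to 2020 CPM in IL4KO_HFD. The call was lost in 8 of 19 alternatives for Fth1 and in 11 for Ftl1. With the length trend taken out neither ferritin chain was called. Hamp, the iron hormone hepcidin, had 11.5, 16.9, 28.9 and 0.234 CPM in dKO_HFD, against 11.5, 43.1 and 290 CPM in IL4KO_HFD (FDR 0.103), a spread wider than the difference. Ern1, a sensor of unfolded proteins, was the 1 gene called of 33 of the unfolded protein and stress response, whose median was 0.05, with 26.6 to 34.6 CPM in dKO_HFD, against 15.4 to 26 CPM in IL4KO_HFD (0.63 ± 0.17, FDR 0.0489). The Ern1 call was lost in 9 of 19 alternatives, and with the length trend taken out none of the 33 was called. Of 37 genes of liver zonation and the urea cycle Cyp1a2 and Sox9 were higher and Hsd17b13, a droplet enzyme, lower (-0.70 ± 0.18, FDR 0.0359), at a median of 0.07. Slc2a4 was the 1 gene called of 5 tested adipocyte genes, at a median of 0.02. None was called by edgeR, at most 5 of a list had an unadjusted p below 0.05, and DESeq2 called 1, a ribosomal gene, of 23 hepatocyte, 22 heat shock, 56 ribosomal, 21 clock, 18 growth hormone axis, 7 erythroid and 1 muscle and pancreas genes, whose medians lay between -0.08 and 0.39.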

How the data were processed

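RNA-seq measured 23 livers, of which 7 form the comparison. Per the submitters' processing notes, bcl2fastq 2.16, TopHat2 2.0.8, Partek and the mm10 build were used. Of counting, strand and annotation the notes used here say nothing. What the authors deposited is a table of estimated counts by gene symbol, 24440 in all (6462 at 0 throughout, 88.6% to 94.4% of a library's values whole) and log2 values for 14078 genes.

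The deposited estimated counts were rounded and analysed with edgeR 4.0.16 in R 4.3.3. Its filter by group left 12891 genes. The 23 libraries entered a single robust quasi-likelihood model with 1 mean per group (residual degrees of freedom 17) and trimmed mean of M values factors. SE is the absolute log2 fold change divided by the square root of F. Tests were two-sided. The interaction contrast was the high-fat diet difference minus the chow difference. List levels use log2 CPM with a prior count of 2. The labels name separate mice. Before use, the fits were checked on simulated counts with known changes.

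Positions are from RefSeq GRCm38.p6, matched for 12847 tested genes, with alternative and unplaced sequences left out. Transcript lengths are those of the longest GENCODE M21 transcript of a symbol (96.3% of tested genes had one).

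The 40 gene lists, the members and the tests were chosen with earlier results of these data known. Named genes were Il4 and Il10; among called genes whose groups did not overlap and whose higher group averaged 2 CPM or more, the 12 of widest change in each direction, without predicted genes; the first 2 tested members of each list and the 2 with the smallest p; and called genes within 10 Mb of Il10 or Il4. Other genes were named after their values were seen. Alternatives were other scaling factors, other filters, DESeq2 1.42.0, limma-voom and limma 3.58.1 on the deposited log2 values, the compared groups alone, no robust estimation, thinning, and leaving out libraries. Taking out the length trend (a lowess curve per library as an offset) was added after seeing the data. Counting intervals are exact. Some genes are not reported here.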

Additional observations from a re-analysis of the deposited data

Results flagged for a closer look

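Within the 4 dKO_HFD libraries, 6 of 67 named called genes had 1 library far from the other 3 by the gap-to-range ratio, where above 0.829 counts as far and chance flags about 1 in 20 groups. The ratio was 0.997 for Lyve1 (replicate 2 low), 0.990 for Sox9 (replicate 4 high), 0.910 for Dynlt1b (replicate 4 high), 0.844 for Phlda3 (replicate 2 low), 0.838 for Fbp1 (replicate 4 low) and 0.832 for Vldlr (replicate 3 high). Of 40 list levels 2 were far, the neutrophil list at 0.962 and the IL-4 and IL-10 signalling list at 0.889, both with replicate 4 high.

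For 27 of the 67 named called genes the difference between dKO and IL4KO on the high-fat diet differed from that on chow (interaction FDR below 0.05, edgeR). The interaction, as high-fat diet log2 fold change minus chow log2 fold change, was positive for Selenbp2 (4.33), Cyp1a2 (1.82), Cd4 (1.56), Capn8 (1.56), Tymp (1.17), Ern1 (1.02), Shmt1 (0.65), Ulk2 (0.57), Pm20d1 (0.54), Dars (0.49), Timd2 (0.39), Fbp1 (0.39) and Gckr (0.28). It was negative for Trem2 (-3.17), Pdlim2 (-2.98), Krt19 (-2.55), Phlda3 (-2.36), Epcam (-2.0), Postn (-1.94), Mcm6 (-1.67), Rgs5 (-1.64), Cntnap1 (-1.60), Rcan2 (-1.43), Xaf1 (-1.11), Arl8a (-0.73), Plin3 (-0.55) and Tmem9 (-0.54).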

How the results depend on the processing

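The count of 323 called genes (122 higher, 201 lower) became 589 (214 and 375) with DESeq2, 202 (63 higher) with limma-voom, 4 (3 and 1) with the compared groups alone, 191 (72 and 119) with the length trend taken out, and 40 (23 and 17) without dKO_HFD replicate 4 and IL4KO_HFD replicate 2 together. Lower calls were 130 with no filter and 115 on the deposited log2 values. Leaving out each library in turn gave 39 to 1241 called genes, 19 to 561 higher and 20 to 680 lower. The cause was not tested. The interaction count of 3144 became 1293 without IL4KO_HFD replicate 2, the lowest of 1293 to 4190 with a library left out. RLE and upper quartile factors, the strict filter, no robust estimation and thinning moved no total by over 1.5 times. No called named gene changed sign under the 19 alternatives, of which Il10 had a value in 18. Calls were often lost, however: in 17 alternatives for Tspan8, in 12 for Rassf5 and Tmem9, and in 11 for Elovl5, Ftl1 and Atox1. The call of Ern1 was lost in 9 and that of Cd4 in 8, while Lamc3 kept its call in all 19. No paired analysis was possible because the labels carry no replicate numbers. Depth of 7788331 to 8935346 counts in IL4KO_HFD limits genes near 0 CPM.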
